A study of Arabidopsis thaliana with 35 samples.

Results

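Wild-type *Arabidopsis thaliana* (WT) seedlings kept on estradiol for 8 h were compared with WT seedlings kept on it for 3 h. These groups make up 8 of the 35 libraries of the series, 4 at 8 h (replicates 1 to 4) and 4 at 3 h (replicates 1 to 4), and were taken from the sample labels. All seedlings were 7 d old, had been germinated on ½MS plates under a cycle of 16 h light and 8 h dark, and were moved to plates with 5 mM 17-β estradiol. WT carried no XVE construct, the estradiol-activated switch that drives the transgene in the other lines, so in WT no transgene could respond to the hormone. Per the methods of the study each library pooled whole seedlings. The methods also call the repeats of each time point biological. Neither the methods nor the labels say whether replicates came from separate plates or sowings. The p-values therefore measure the spread between these libraries, which may be in part technical. The titles of the uninduced WT libraries give no hour. The methods of the study name induction or mock plates for 3 h, so the time of this group after transfer is uncertain. No WT group labeled as mock for 3 h or 8 h was analyzed here. The clock time of harvest is not given in the sources used here. The later hour of the day, the longer time after transfer to new plates and the longer exposure to estradiol therefore cannot be told apart in this comparison. For the same interval, 8 h against 3 h, values are given from a pair of lines that shared no library with WT: XVE:EPFL4, which expresses a secreted peptide on induction (4 against 4 libraries), and *er* XVE:ER, an *er* mutant with an inducible *ER* receptor transgene (4 against 3 libraries).

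The circadian clock of *Arabidopsis* is a set of genes that repress one another in turn over the day. The MYB-related proteins CCA1 and LHY accumulate around dawn and repress evening genes through a promoter sequence called the evening element, the pseudo-response regulators (PRRs) follow as a wave through the day and repress *CCA1* and *LHY*, and the evening complex of ELF3, ELF4 and LUX closes the loop. Clock outputs include the genes of the chlorophyll-binding antenna proteins, of starch turnover in leaves and of growth by cell expansion.

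The 8 libraries did not fall into 2 even groups. Total counts were 20010887 to 21262829 per library at 8 h (median 20669163) and 18356943 to 20334386 at 3 h (median 19314292), and the 10 most abundant genes took 5.18 to 6.45% of the counts at 8 h and 8.14 to 8.68% at 3 h. Counts of replicate pairs were compared by chi-square over genes and divided by the degrees of freedom, a ratio of about 1 where counting error alone separates the libraries. At 8 h replicates 1 and 4 differed by 5.28 and replicates 2 and 3 by 21.6, while any library of the first pair differed from any of the second by 66.8 to 82.2. At 3 h replicates 1, 2 and 3 differed by 5.63 to 8.87 from each other and by 54.1 to 56.5 from replicate 4. No pair was close enough to be 1 library deposited more than once. Of the genes tested, 744 (3.77%) stood more than 2-fold higher in both 8 h replicates 1 and 4 than in both 2 and 3, and 349 (1.77%) the other way. Another 389 (1.97%) stood more than 2-fold above, and 704 (3.56%) more than 2-fold below, the other 3 h libraries in 3 h replicate 4. The labels give no batch for these libraries. All 8 were kept. Where the call of a gene named below changed without 3 h replicate 4, without 8 h replicates 1 and 4 or without 8 h replicates 2 and 3, its edgeR values in that setting are given beside it, a choice made after seeing the data.

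Whole-seedling markers were present at both times. The summed level of 6 genes of photosynthetic leaf cells was 19528 to 25898 CPM (read counts relative to library size, after TMM scaling) at 8 h and 29028 to 35568 CPM at 3 h, and 3 of the 6 were called lower (*RCA*, *GLK2* and *PSBO1*). The summed level of 8 genes of the root endodermis was 34.0 to 50.5 CPM at 8 h and 50.5 to 114 CPM at 3 h, with 3 of the 6 tested called lower by edgeR and 5 by DESeq2 (by edgeR 2 without 3 h replicate 4, 3 without 8 h replicates 1 and 4 and 0 without 8 h replicates 2 and 3). None of 4 root hair genes was called by edgeR or DESeq2, or had an unadjusted p under 0.05, with all libraries. Without 8 h replicates 2 and 3 edgeR called 2 root hair genes lower (*EXPA7* and *EXPA18*, list median -0.92). In that setting it called 5 of the 6 leaf genes lower. The root hair and leaf counts were 0 and 3 without 3 h replicate 4, and also without 8 h replicates 1 and 4. The 3 seed storage genes summed to 0 CPM at 8 h and 0 to 0.169 CPM at 3 h, and *CRU3* was at 0 in every library. In whole seedlings, fewer cells of a type and less RNA per cell cannot be told apart.

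Differential expression was tested in edgeR by quasi-likelihood, and a gene is called where its Benjamini-Hochberg adjusted p over all genes tested is under 0.05. Of 19748 genes tested 3154 (16.0%) were called, 1789 (9.06%) higher and 1365 (6.91%) lower at 8 h, and 1017 (5.15%) were called with at least a 2-fold change. The 4 and 4 libraries did not overlap for 2948 (14.9%) as well as being called, and for 4355 (22.1%) whether called or not. The median log2 fold change over all genes was 0.01. The counts called in each list below are to be read beside the shares of all genes, 9.06% higher and 6.91% lower. The number called was 1711 without 3 h replicate 2, 1718 without 3 h replicate 3 and 4077 without 3 h replicate 4. It was 3021 without 8 h replicates 1 and 4 together and 3435 without 8 h replicates 2 and 3 together. All log2 fold changes below are 8 h over 3 h, with the standard error (SE) derived from the test statistic.

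The morning genes of the clock were far lower at 8 h. Of the 12 morning genes (the MYB-related *CCA1*, *LHY* and *REVEILLE* genes and their partners, the *LNK* genes) 10 were called lower and 1 higher, with a median log2 fold change of -3.53, against 6.91% lower and 9.06% higher of all genes. *CCA1*, a dawn-phased MYB-related repressor, had 1.48, 0.973, 1.2 and 1.22 CPM in 8 h replicates 1 to 4, against 143, 177, 180 and 43.0 CPM in 3 h replicates 1 to 4. The groups were apart by a wide margin, and 3 h replicate 4 was the 3 h library nearest to 8 h. The log2 change was -6.78 ± 0.49 SE (edgeR adjusted p = 1.1e-04).

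*LHY*, its close homolog, had 0.0925, 0.926, 0.770 and 0.634 CPM at 8 h, against 32.5, 41.8, 42.2 and 10.7 CPM at 3 h. The groups did not overlap, and 3 h replicate 4 was again the lowest of its group (log2 change -5.70 ± 0.58 SE, edgeR adjusted p = 5.7e-04). Across the 3 WT groups *LHY* averaged 256 CPM in uninduced WT, of uncertain time, 31.8 CPM at 3 h and 0.606 CPM at 8 h. *RVE8*, an activator of afternoon and evening genes, had 0.971, 2.32, 2.60 and 1.31 CPM at 8 h, against 33.1, 44.3, 44.4 and 14.2 CPM at 3 h. Its groups did not overlap either (log2 change -4.23 ± 0.43 SE, edgeR adjusted p = 5.6e-04).

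The 4 *LNK* genes encode coactivators that work with RVE8 and RVE4, and all 4 were called lower. *LNK2* averaged 11.2 ± 5.93 CPM at 8 h and 395 ± 65.9 CPM at 3 h (SD, n = 4 each), without overlap (log2 change -5.13 ± 0.41 SE). *LNK3* averaged 0.486 ± 0.25 CPM at 8 h and 57.0 ± 26.1 CPM at 3 h (SD, n = 4 each), *LNK4* averaged 2.41 ± 1.38 CPM and 67.7 ± 5.07 CPM, and *LNK1* averaged 18.3 ± 6.44 CPM and 129 ± 52.1 CPM. For none of the 4 did the groups overlap. *LNK1*, *LNK2* and *LNK3* overlap an annotated gene on the opposite strand, and the strand setting of the counts is not given in the sources used here, so reads of such partners cannot be told apart.

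The remaining *REVEILLE* genes were graded. *RVE1*, which links the clock to auxin, averaged 4.06 ± 0.859 CPM at 8 h and 29.0 ± 9.95 CPM at 3 h. *RVE7* averaged 12.7 ± 1.99 CPM at 8 h and 49.1 ± 5.35 CPM at 3 h, and *RVE4* averaged 32.0 ± 4.17 CPM at 8 h and 85.2 ± 5.85 CPM at 3 h (SD, n = 4 each). All 3 were called lower without overlap. *RVE2* was the 1 morning gene that rose, with 53.1, 97.9, 143 and 51.7 CPM at 8 h, against 6.45, 8.85, 9.44 and 6.50 CPM at 3 h (log2 change 3.47 ± 0.35 SE, edgeR adjusted p = 5.4e-04). Its 8 h replicates 2 and 3 were above replicates 1 and 4, yet all 4 stood above every 3 h library. *RVE6* (AT5G52660) overlapped, at 7.08 to 12.6 CPM at 8 h and 10.3 to 15.0 CPM at 3 h, and was not called (log2 change -0.37, edgeR adjusted p = 0.23; called lower without 8 h replicates 2 and 3, at -0.71 and adjusted p = 0.049).

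Of the 5 pseudo-response regulators, 3 were called higher (*PRR5*, *TOC1* and *PRR3*) and 1 lower (*PRR9*), with a median of 1.79. *PRR9*, the morning member, had 0.277, 0.278, 0.193 and 0.181 CPM at 8 h, against 41.2, 50.6, 51.1 and 8.93 CPM at 3 h. This was the largest fall of any gene that met the naming rule, a log2 change of -7.30 ± 0.65 SE (edgeR adjusted p = 2.8e-04), and 3 h replicate 4 was the nearest to 8 h. *PRR7* had 118, 36.4, 38.6 and 120 CPM at 8 h, against 174, 167, 186 and 282 CPM at 3 h. The groups did not overlap but the gene was not called (log2 change -1.36, edgeR adjusted p = 0.063), and without 8 h replicates 1 and 4 it was (-2.45, adjusted p = 0.0016).

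*PRR5* had 82.5, 27.4, 34.4 and 72.2 CPM at 8 h, against 14.3, 13.3, 12.9 and 22.4 CPM at 3 h. It was called higher (log2 change 1.79 ± 0.38 SE, edgeR adjusted p = 0.013), with 8 h replicates 1 and 4 the highest, and the value was 0.96 without them and 2.29 without replicates 2 and 3. *TOC1* (*PRR1*), the evening member, had 250, 156, 177 and 256 CPM at 8 h, against 27.7, 28.1, 26.2 and 51.2 CPM at 3 h (log2 change 2.66 ± 0.28 SE, edgeR adjusted p = 6.5e-04). *PRR3*, which protects TOC1 from degradation, had 62.8, 69.2, 76.1 and 64.1 CPM at 8 h, against 2.85, 4.50, 3.57 and 7.40 CPM at 3 h (log2 change 3.89 ± 0.28 SE, edgeR adjusted p = 1.1e-04). Neither gene overlapped between the times.

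Evening genes were mostly higher. Of 7 tested, 4 were called higher and 1 lower, with a median of 1.53. *ELF4*, a component of the evening complex, had 109, 124, 111 and 112 CPM at 8 h, against 5.86, 6.70, 7.40 and 12.6 CPM at 3 h (log2 change 3.81 ± 0.24 SE, edgeR adjusted p = 6.6e-05). *LUX*, the DNA-binding subunit of the complex, had 116, 70.8, 86.7 and 123 CPM at 8 h, against 15.9, 14.8, 13.0 and 29.2 CPM at 3 h (log2 change 2.45 ± 0.30 SE). The 8 h levels of *LUX* were split by library pair, those of *ELF4* were not, and neither gene overlapped. *BOA*, a homolog of *LUX*, averaged 16.5 ± 2.69 CPM at 8 h and 1.04 ± 0.682 CPM at 3 h, and *ELF3*, the scaffold of the complex, averaged 81.4 ± 1.11 CPM at 8 h and 28.2 ± 10.3 CPM at 3 h (SD, n = 4 each). *ELF3* was between 79.8 and 82.4 CPM in all 8 h libraries. *LUX*, *BOA* and *ELF3* each overlap an annotated antisense gene.

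*GI*, which stabilizes the photoreceptor ZTL, had 150, 72.8, 91.7 and 138 CPM at 8 h, against 88.1, 81.1, 88.2 and 94.0 CPM at 3 h. Replicates 1 and 4 at 8 h were above and replicate 2 below every 3 h library, and the gene was not called (log2 change 0.37, edgeR adjusted p = 0.31). Without 8 h replicates 2 and 3 it was called higher (0.70, adjusted p = 0.0051), and without 8 h replicates 1 and 4 its value was -0.11 (adjusted p = 0.63). *ZTL* itself was 46.1 to 50.5 CPM at 8 h and 56.3 to 62.0 CPM at 3 h, a small fall of 0.27 on the log2 scale that was just called (adjusted p = 0.048, edgeR) and was of like size but not called without 8 h replicates 1 and 4 (-0.29, adjusted p = 0.11) or 2 and 3 (-0.29, adjusted p = 0.075). *CHE* was not called (log2 change -0.67, edgeR adjusted p = 0.23), and without 8 h replicates 1 and 4 it was called lower (-1.37, adjusted p = 0.017).

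**Figure D1:**
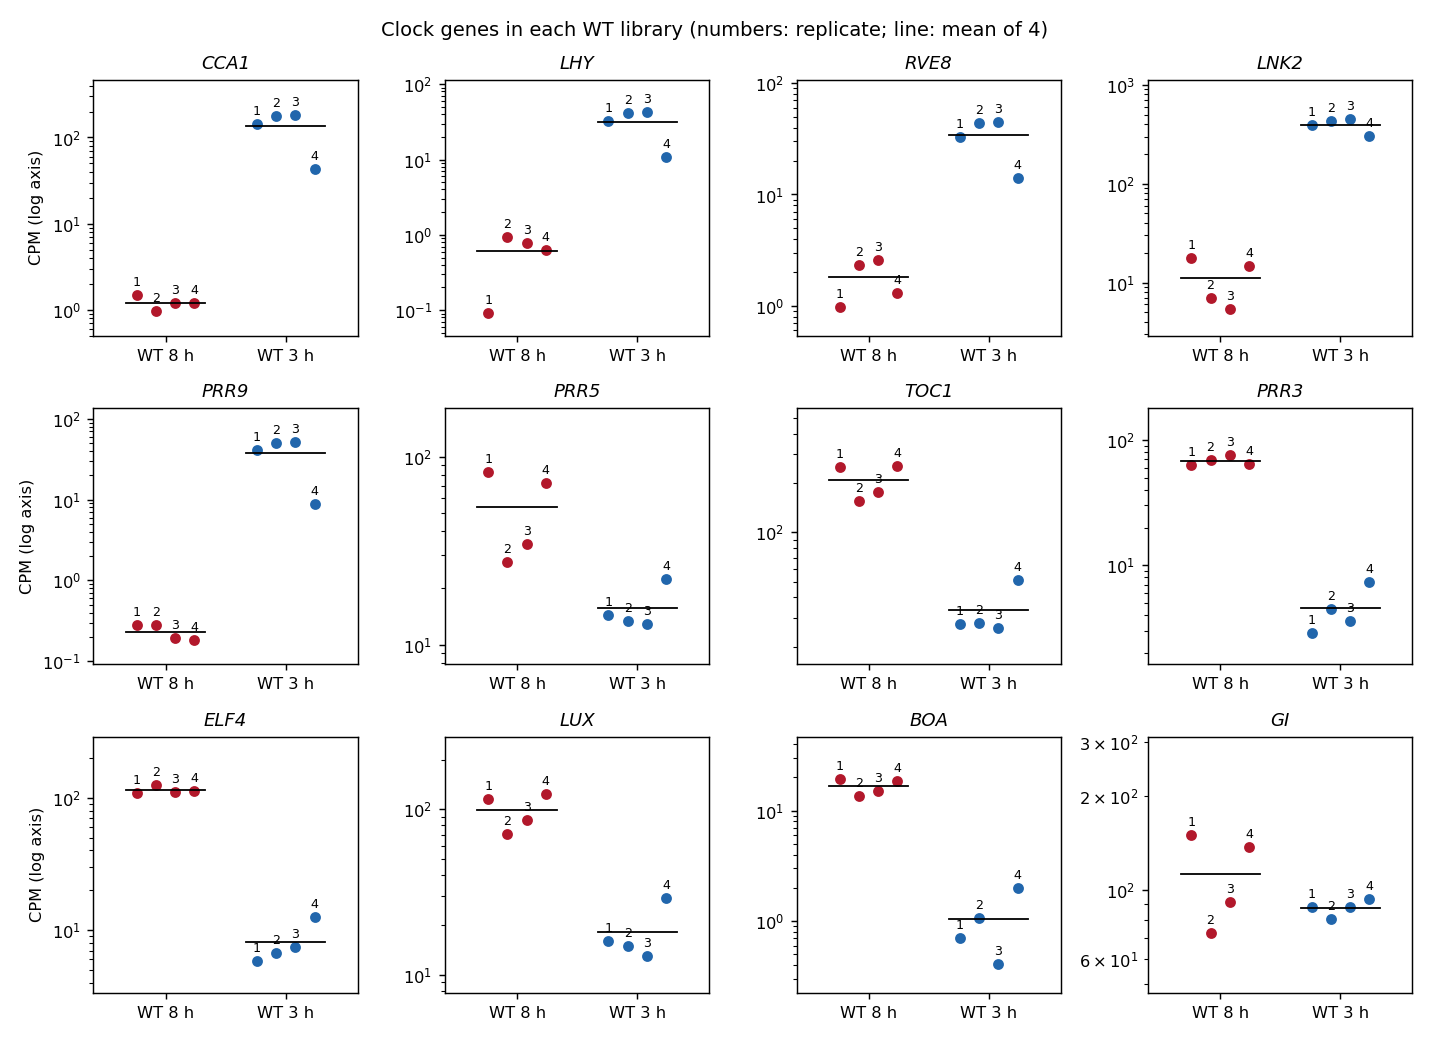
CPM on a log axis of 12 clock genes in each WT library at 8 h (red) and 3 h (blue), with the replicate number beside each point and a line at the mean of 4. *CCA1*, *LHY*, *RVE8*, *LNK2* and *PRR9* are lower at 8 h, *PRR5*, *TOC1*, *PRR3*, *ELF4*, *LUX* and *BOA* are higher without overlap, *GI* overlaps, and 3 h replicate 4 (*CCA1* 43.0 CPM, others 143 to 180) is the 3 h library nearest to the 8 h level in most panels.

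Clock output genes moved in both directions. Of 9 photoperiod and clock output genes tested (of 12), 3 were called higher and 4 lower. *FKF1*, a blue-light receptor that removes repressors of flowering in the afternoon, had 58.1, 49.9, 50.1 and 61.3 CPM at 8 h, against 1.83, 1.88, 2.35 and 4.80 CPM at 3 h (log2 change 4.34 ± 0.31 SE, edgeR adjusted p = 1.1e-04). *CDF1*, *CDF2* and *CDF3*, Dof repressors that FKF1 targets, were all called lower: *CDF1* averaged 4.97 ± 1.01 CPM at 8 h and 31.3 ± 13.7 CPM at 3 h, *CDF2* averaged 4.36 ± 0.943 CPM and 15.5 ± 4.93 CPM, and *CDF3* averaged 9.72 ± 2.38 CPM and 80.6 ± 34.9 CPM (SD, n = 4 each). *COL2*, a homolog of *CONSTANS*, averaged 2.77 ± 0.916 CPM at 8 h and 49.8 ± 21.4 CPM at 3 h and was also called lower. *CO* was at 0.362 to 0.433 CPM at 8 h and 0 to 0.536 CPM at 3 h, too low to be tested. *FT*, the flowering signal, was not called (log2 change 1.56, edgeR adjusted p = 0.13), and without 8 h replicates 1 and 4 it was called higher (2.13, adjusted p = 0.032).

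*GRP7*, a clock-controlled RNA-binding protein that regulates splicing, was among the most abundant genes that rose. It had 3238, 3197, 2539 and 3475 CPM at 8 h, against 332, 324, 297 and 678 CPM at 3 h (log2 change 2.93 ± 0.29 SE, edgeR adjusted p = 5.4e-04). The lowest 8 h library was several-fold above the highest 3 h library, which was replicate 4. Across the 3 WT groups the mean of *GRP7* was 132 CPM in uninduced WT, 408 CPM at 3 h and 3112 CPM at 8 h. *GRP8*, its homolog, was 398 to 656 CPM at 8 h and 276 to 400 CPM at 3 h, and was called with overlap (log2 change 0.83, edgeR adjusted p = 0.023). Its change was 0.55 and not called without 8 h replicates 1 and 4 (adjusted p = 0.098).

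Promoter sequences are shown for some genes of both phases. All of those shown hold a motif match, and they do not stand for their lists, whose shares are given below. They are the bases just upstream of the annotated start, read from the TAIR10.1 assembly (RefSeq) in the direction of the gene, and in the first 5 the capitals mark the evening element AAAATATCT or its reverse complement AGATATTTT. *GRP7* (chr2:9266558-9266677, minus strand), *COR27* (chr5:17199911-17199990, minus strand) and the clock genes *LUX* (chr3:17182942-17183041, plus strand), *TOC1* (chr5:24674783-24674962, plus strand) and *PRR5* (chr5:8358547-8358766, minus strand) were all called higher at 8 h.
GRP7: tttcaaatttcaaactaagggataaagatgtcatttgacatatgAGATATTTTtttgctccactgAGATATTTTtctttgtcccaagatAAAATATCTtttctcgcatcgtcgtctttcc
COR27: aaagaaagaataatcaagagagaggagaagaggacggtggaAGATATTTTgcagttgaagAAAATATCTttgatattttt
LUX: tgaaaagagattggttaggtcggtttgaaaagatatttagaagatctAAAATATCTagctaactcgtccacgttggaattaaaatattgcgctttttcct
TOC1: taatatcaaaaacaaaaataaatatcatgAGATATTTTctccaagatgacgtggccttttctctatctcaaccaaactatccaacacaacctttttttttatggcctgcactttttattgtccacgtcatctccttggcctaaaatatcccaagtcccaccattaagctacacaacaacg
PRR5: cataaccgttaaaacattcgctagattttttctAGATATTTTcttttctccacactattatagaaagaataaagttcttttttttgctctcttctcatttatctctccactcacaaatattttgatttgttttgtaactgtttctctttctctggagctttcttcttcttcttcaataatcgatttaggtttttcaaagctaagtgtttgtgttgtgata

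The 3 matches of *GRP7* lie 76 to 68, 55 to 47 and 31 to 23 bases upstream of its start, and the 2 of *COR27* lie 39 to 31 and 20 to 12 bases upstream. Genes called lower are represented by *LHY* (chr1:37872-37991, minus strand), *CCA1* (chr2:19245371-19245590, plus strand) and *PRR9* (chr2:19232347-19232606, plus strand), with the G-box CACGTG in capitals, a sequence that reads the same on both strands.
LHY: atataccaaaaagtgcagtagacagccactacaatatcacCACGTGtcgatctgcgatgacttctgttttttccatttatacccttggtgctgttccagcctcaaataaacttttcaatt
CCA1: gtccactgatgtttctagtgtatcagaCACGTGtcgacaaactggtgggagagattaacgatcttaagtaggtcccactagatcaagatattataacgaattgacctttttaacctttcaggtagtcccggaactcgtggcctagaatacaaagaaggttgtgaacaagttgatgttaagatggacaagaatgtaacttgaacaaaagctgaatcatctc
PRR9: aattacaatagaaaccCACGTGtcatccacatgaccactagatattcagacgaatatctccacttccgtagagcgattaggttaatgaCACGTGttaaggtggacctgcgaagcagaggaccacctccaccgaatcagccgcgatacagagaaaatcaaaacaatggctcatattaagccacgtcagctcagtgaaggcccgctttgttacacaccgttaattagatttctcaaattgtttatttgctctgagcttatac

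The 300 bases upstream of each start were searched on both strands for 8 motifs in 19668 promoters of tested genes. The evening element AAAATATCT was found in 5.70% of the promoters of genes called higher, in 2.34% of those of genes called lower and in 2.91% of all. Among genes called with at least a 2-fold change the shares were 10.8% (higher) and 2.36% (lower). The G-box CACGTG was found in 6.43% of the promoters of genes called higher, in 12.5% of those called lower and in 7.99% of all. The CCA1-binding site AAAAATCT, which shares its last letters with the evening element, was found in 8.44%, 7.91% and 7.92%. The I-box GATAAG, a light-responsive element, was found in 13.4%, 16.0% and 14.5%. By list, the evening element was found in 2 of 7 evening clock genes, 2 of 5 pseudo-response regulators and 1 of 12 morning clock genes (*RVE7*, called lower). The G-box was found in 5 of 12 morning clock genes, 2 of 7 evening clock genes and 6 of 17 starch breakdown genes. *LUX*, *BOA* and *RVE2*, all called higher, hold a G-box, and *COL2*, called lower, holds an evening element. No test was run on these shares. A match is a description of the letters and not of a bound factor.

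**Figure D2:**
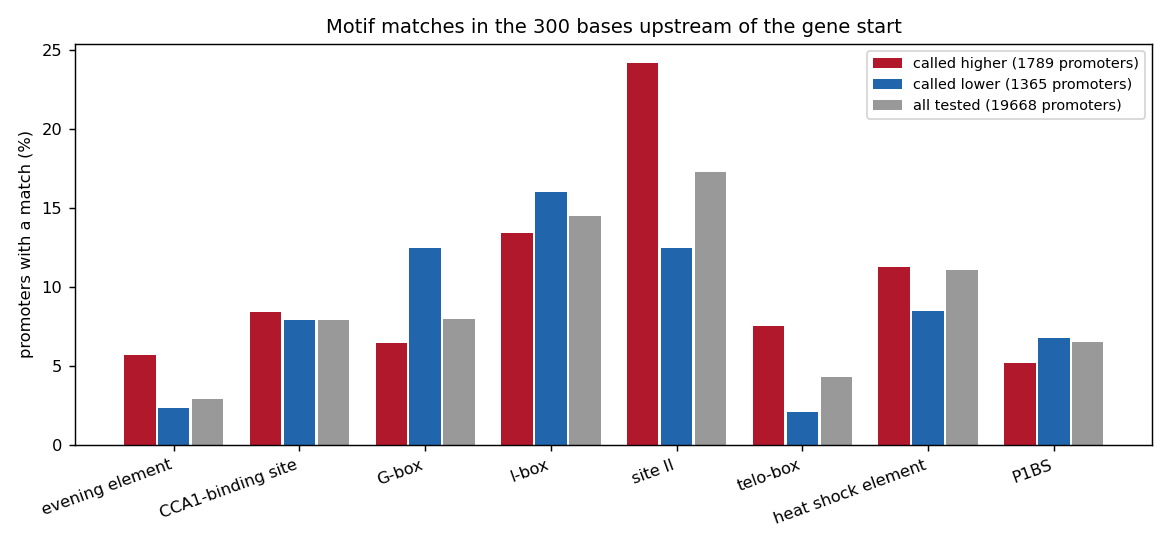
Percent of promoters (300 bases upstream of the start) with a match to each of 8 motifs, for genes called higher at 8 h (red), genes called lower (blue) and all tested genes (gray), with no error bars and no test. The evening element (5.70, 2.34 and 2.91%), site II (24.2, 12.5 and 17.3%) and telo-box (7.55, 2.05 and 4.27%) are most frequent among genes called higher and the G-box (6.43, 12.5 and 7.99%) among genes called lower.

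Beyond the named clock genes, the largest rises were of genes of which several are known to cycle or to respond to cold. *COR27*, a cold-induced and clock-controlled repressor, had 95.6, 42.3, 43.3 and 93.2 CPM at 8 h, against 0.807, 0.268, 0.204 and 1.41 CPM at 3 h (log2 change 6.69 ± 0.58 SE, edgeR adjusted p = 2.5e-04). Replicates 1 and 4 at 8 h were more than 2-fold above replicates 2 and 3, and all were far above 3 h. AT1G07050, which encodes a protein with a CCT domain like that of the PRRs, had 61.6, 63.3, 77.3 and 64.1 CPM at 8 h, against 0.860, 1.02, 0.919 and 0.621 CPM at 3 h (log2 change 6.27 ± 0.16 SE, edgeR adjusted p = 3.0e-07). It varied little within either time.

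AT4G33980 averaged 54.3 ± 33.6 CPM at 8 h and 1.11 ± 0.897 CPM at 3 h. *JMJD5*, a Jumonji-domain protein tied to the clock, averaged 161 ± 54.8 CPM at 8 h and 3.27 ± 1.93 CPM at 3 h. AT5G23240, which encodes a J-domain protein, averaged 240 ± 50.2 CPM at 8 h and 7.12 ± 6.94 CPM at 3 h, and *COL9*, a CONSTANS-like protein, averaged 121 ± 32.8 CPM at 8 h and 4.42 ± 1.74 CPM at 3 h (SD, n = 4 each). None of these 4 overlapped between the times. AT2G40350, annotated as an integrase-type DNA-binding protein, had 2.59, 2.27, 1.64 and 2.08 CPM at 8 h (34 to 56 counts) and 0 counts in all 3 h libraries. Against a floor of 3 counts per library it was at least 13.8-fold higher.

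Among the largest falls outside the clock lists, *BBX16*, a B-box protein, had 1.06, 0.185, 0.819 and 0.498 CPM at 8 h, against 77.2, 84.9, 82.5 and 43.2 CPM at 3 h (log2 change -6.79 ± 0.42 SE, edgeR adjusted p = 5.3e-05). *SAG29* (*SWEET15*), a sucrose transporter, averaged 0.430 ± 0.137 CPM at 8 h and 15.5 ± 4.17 CPM at 3 h (SD, n = 4 each). *NATA1*, an acetyltransferase of ornithine, had 0.185, 0.0926, 0.193 and 0.181 CPM at 8 h, against 5.91, 7.13, 4.59 and 1.02 CPM at 3 h (log2 change -4.78 ± 0.63 SE, edgeR adjusted p = 0.0017). All 3 had groups that did not overlap, with 3 h replicate 4 the lowest 3 h library each time.

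The genes of the light-harvesting antenna fell almost as a whole. Of 17 tested (of 18 listed, *LHCB1.5* being at 0 in every library) 16 were called lower and none higher by edgeR as by DESeq2, with a median log2 fold change of -1.98 and no overlap in any of the 16. The number called lower was also 16 without 3 h replicate 4, without 8 h replicates 1 and 4 (with 1 called higher) and without 8 h replicates 2 and 3. *LHCB2.3*, a subunit of the trimeric antenna of photosystem II, had 57.0, 13.0, 15.6 and 60.7 CPM at 8 h, against 1460, 1552, 1452 and 1126 CPM at 3 h (log2 change -5.24 ± 0.57 SE, edgeR adjusted p = 7.6e-04).

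The depth of the fall differed between the library pairs. *LHCB1.1* had 951, 82.7, 98.8 and 933 CPM at 8 h, against 6986, 7243, 6595 and 7108 CPM at 3 h. All 8 h libraries were far below 3 h, and among them replicates 2 and 3 were the lower pair. The log2 change was -3.74 ± 0.82 SE (edgeR adjusted p = 0.016), -6.28 without 8 h replicates 1 and 4, and -2.90 without replicates 2 and 3. *LHCA4*, an antenna protein of photosystem I, had 2744, 986, 1060 and 2833 CPM at 8 h, against 7416, 8007, 7775 and 7201 CPM at 3 h (log2 change -1.98 ± 0.37 SE, edgeR adjusted p = 0.0076). *LHCB1.3* was at 5358 to 8713 CPM at 8 h and 13344 to 19365 CPM at 3 h, with the smaller change of -1.11 ± 0.22 SE (edgeR adjusted p = 0.011). The *LHCB1* and *LHCB2* genes include near-identical copies, so that the split of reads among them is uncertain. *LHCB4.3* was the exception, at 17.5 to 72.0 CPM at 8 h and 21.6 to 41.3 CPM at 3 h (log2 change 0.39, edgeR adjusted p = 0.60), and was called higher without 8 h replicates 1 and 4 (1.00, adjusted p = 0.026).

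Other genes of photosynthesis did not all move with the antenna. *RCA*, the activase of Rubisco, had 3804, 4449, 5994 and 3611 CPM at 8 h, against 11093, 11695, 11369 and 7318 CPM at 3 h (log2 change -1.21 ± 0.21 SE, edgeR adjusted p = 0.0053). *GLK2*, a transcription factor of chloroplast development and of antenna genes, averaged 37.2 ± 9.58 CPM at 8 h and 203 ± 41.6 CPM at 3 h (SD, n = 4 each). *PSBO1*, of the oxygen-evolving complex, was 2609 to 3216 CPM at 8 h and 4834 to 5256 CPM at 3 h. *RBCS1B*, a small subunit of Rubisco, was in contrast called higher, with 2097, 3369, 2885 and 1971 CPM at 8 h, against 1166, 1216, 1066 and 1256 CPM at 3 h (log2 change 1.13 ± 0.18 SE, edgeR adjusted p = 0.0037). *THI1*, of thiamine synthesis, was at 5405 to 8136 CPM at 8 h and 2977 to 3427 CPM at 3 h, and AT3G60750, a transketolase, was at 2609 to 3451 CPM at 8 h and 1512 to 2136 CPM at 3 h. Both were called higher without overlap. The change of AT3G60750 was 0.53 (edgeR adjusted p = 0.045), and it was not called without 8 h replicates 1 and 4 (0.61, adjusted p = 0.057) or 2 and 3 (0.40, adjusted p = 0.12). The summed level of the leaf markers, of which *RCA*, *GLK2* and *PSBO1* are members, was lower at 8 h as given above, and its part in the antenna result was not tested.

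**Figure D3:**
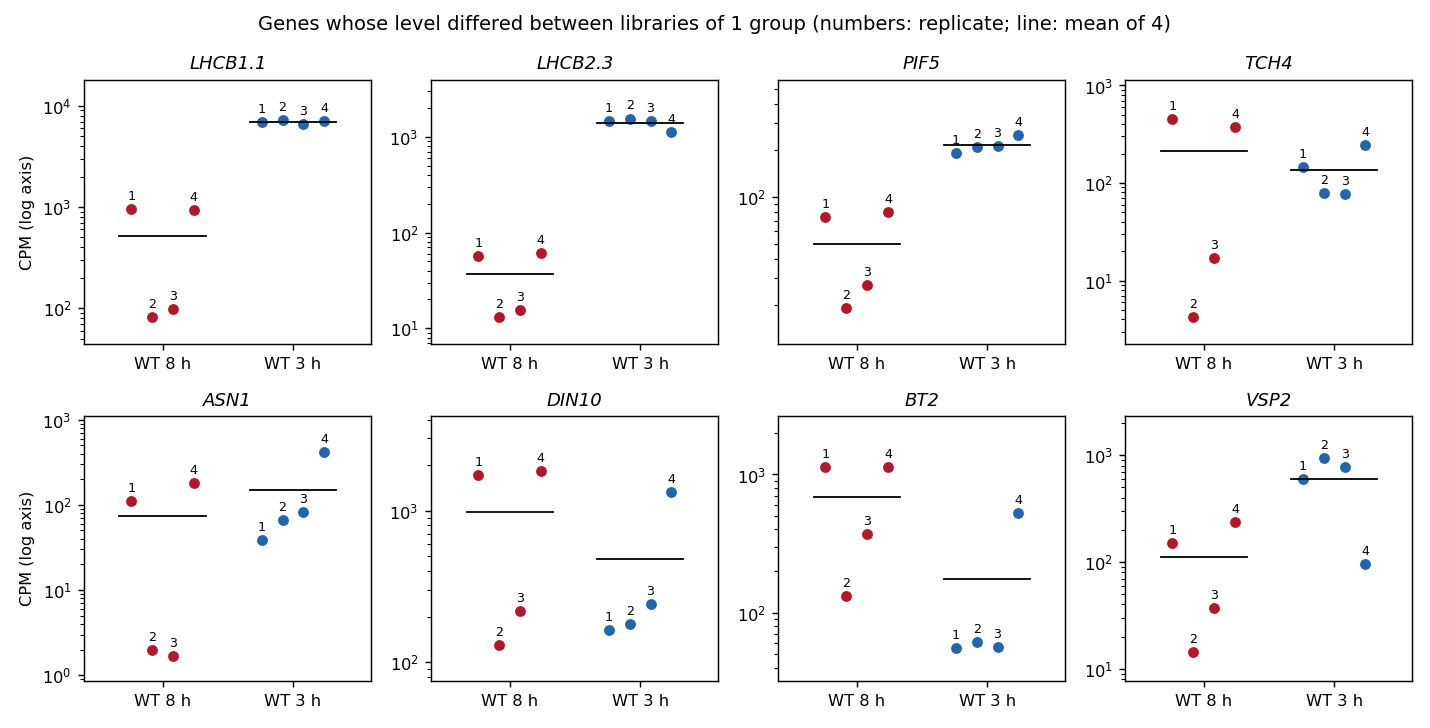
CPM on a log axis in each WT library at 8 h (red) and 3 h (blue) of 8 genes whose level differed between libraries of a group, with the replicate number beside each point and a line at the mean of 4. *LHCB1.1*, *LHCB2.3* and *PIF5* are lower at 8 h in spite of the split between replicates 1 and 4 and replicates 2 and 3, whereas *TCH4*, *ASN1*, *DIN10*, *BT2* and *VSP2* overlap between the times.

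Most genes of starch breakdown were higher. Of 17 tested, edgeR called 11 higher and none lower, with a median of 0.77, and DESeq2 called 13, of which 11 higher. The edgeR count was 10 higher and 2 lower without 3 h replicate 4, 9 higher and 1 lower without 8 h replicates 1 and 4, and 10 higher and 1 lower without 8 h replicates 2 and 3. *PWD*, the dikinase that phosphorylates starch already marked by GWD1, had 449, 302, 485 and 450 CPM at 8 h, against 76.0, 64.3, 70.2 and 111 CPM at 3 h (log2 change 2.39 ± 0.22 SE, edgeR adjusted p = 3.9e-04). *PHS2*, the cytosolic glucan phosphorylase, had 734, 708, 1008 and 698 CPM at 8 h, against 184, 167, 170 and 217 CPM at 3 h (log2 change 2.09 ± 0.16 SE, edgeR adjusted p = 1.3e-04). Neither gene overlapped. *ISA3*, a debranching enzyme, averaged 123 ± 23.1 CPM at 8 h and 33.9 ± 7.14 CPM at 3 h (SD, n = 4 each).

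The dikinase *GWD1* was at 699 to 1162 CPM at 8 h and 307 to 425 CPM at 3 h, and the phosphatase *SEX4*, which removes the phosphate again, was at 113 to 137 CPM at 8 h and 37.3 to 44.6 CPM at 3 h. *BAM3*, the main β-amylase of leaf chloroplasts, had 252, 432, 530 and 239 CPM at 8 h, against 106, 141, 104 and 85.4 CPM at 3 h (log2 change 1.74 ± 0.27 SE, edgeR adjusted p = 0.0037). *AMY3*, *DPE1*, *LDA*, *PHS1* and *DPE2* were called higher with log2 fold changes of 0.97, 1.03, 0.77, 0.55 and 0.51. *LDA* and *PHS1* were not called without 8 h replicates 1 and 4 (0.41 and 0.47, adjusted p of 0.053 and 0.11). *DPE2* was not called without 3 h replicate 4 (0.44, adjusted p = 0.061) or without 8 h replicates 1 and 4 (0.60, adjusted p = 0.058) or 2 and 3 (0.38, adjusted p = 0.081). The other β-amylases pointed the opposite way. *BAM1*, *BAM5* and *BAM9* had values of -0.58, -1.86 and -1.16 that edgeR did not call (adjusted p of 0.051, 0.11 and 0.062), while DESeq2 called *BAM1* and *BAM9* lower (adjusted p of 0.012 and 0.0066). By edgeR *BAM1* and *BAM5* were called lower without 3 h replicate 4 (-0.71 and -2.19), and *BAM9* without 8 h replicates 1 and 4 (-1.96) or 2 and 3 (-0.68). *LSF1*, *LSF2* and *MEX1* were not called by either tool, and *MEX1* was called higher by edgeR without 8 h replicates 1 and 4 (0.50, adjusted p = 0.026).

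Genes of starch synthesis were divided. Of 10 tested, 2 were called higher (*SBE2.1* and *SS4*) and 2 lower (*GBSS1* and *SS2*). *GBSS1*, the granule-bound synthase that makes amylose and a known target of CCA1 and LHY, had 4.16, 10.4, 15.2 and 2.81 CPM at 8 h, against 179, 221, 226 and 94.3 CPM at 3 h (log2 change -4.47 ± 0.55 SE, edgeR adjusted p = 0.0013). *SBE2.1*, a branching enzyme, averaged 258 ± 22.8 CPM at 8 h and 85.1 ± 24.1 CPM at 3 h, and *SS4*, needed to start granules, averaged 189 ± 28.0 CPM at 8 h and 71.5 ± 5.59 CPM at 3 h (SD, n = 4 each). *SS2* was at 33.4 to 42.1 CPM at 8 h and 60.4 to 111 CPM at 3 h. All 4 had groups that did not overlap. Without 3 h replicate 4 edgeR called 2 of the list higher and 5 lower, with *APL1*, *SS3* and *SBE2.2* added. It called 3 higher and 2 lower without 8 h replicates 1 and 4. The counts were 2 higher and 3 lower without 8 h replicates 2 and 3. *APL3* was called higher without 8 h replicates 1 and 4 (1.11, adjusted p = 0.013, edgeR) and lower without 8 h replicates 2 and 3 (-0.77, adjusted p = 0.032).

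**Figure D4:**
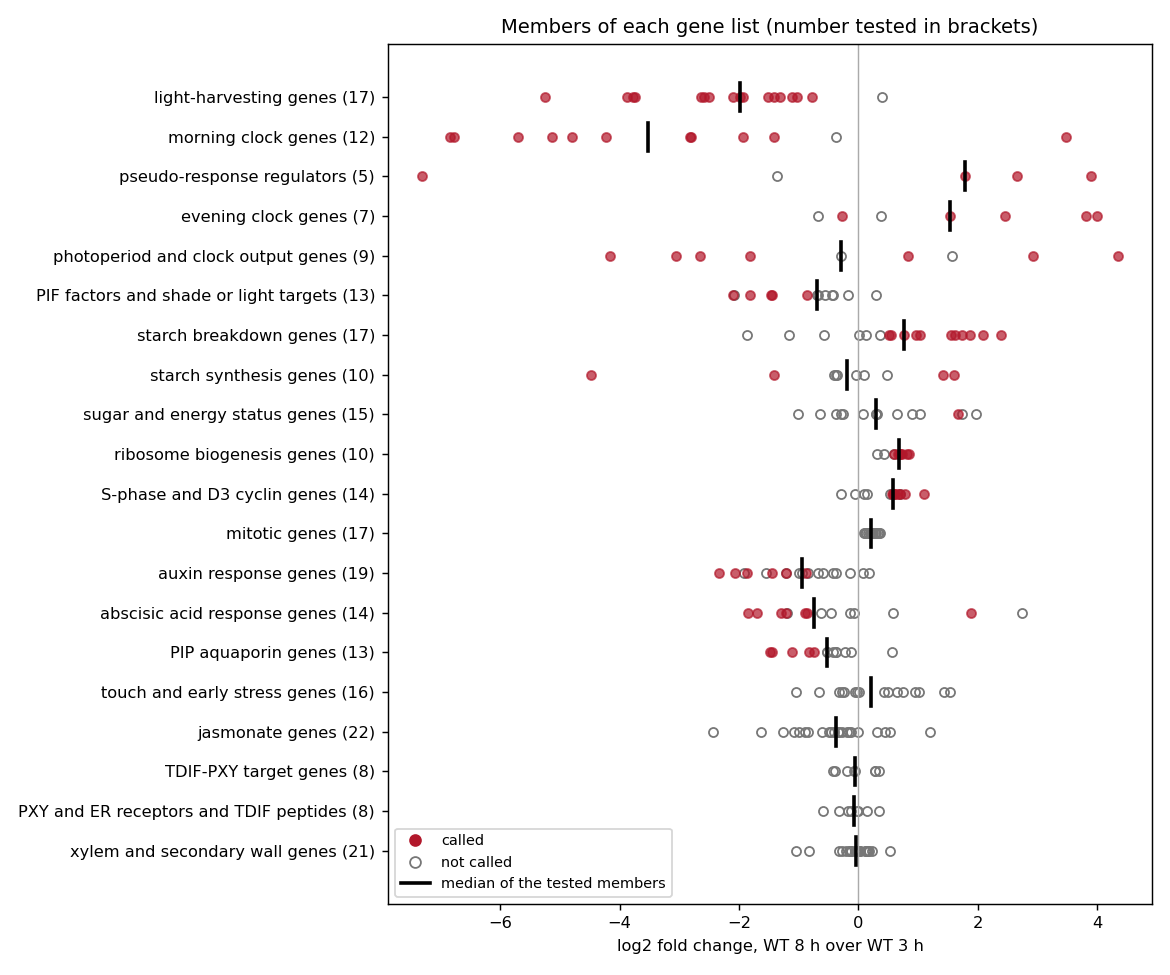
Log2 fold change, WT 8 h over WT 3 h, of each tested member of 20 gene lists, with called members filled in red, members not called open, and a bar at the median of each list. The light-harvesting (median -1.98) and morning clock genes (-3.53) lie to the left, the starch breakdown (0.77), ribosome biogenesis (0.68) and S-phase genes (0.58) to the right, and the receptor and TDIF peptide genes (-0.08) around 0.

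Some genes of light-regulated growth were lower. Of 13 *PIF* genes and shade or light targets, edgeR called 5 lower, none higher and 8 in neither direction (median -0.70), and DESeq2 called 7, all lower. *HY5*, a bZIP factor of light responses, had the 1 positive value (0.30, edgeR adjusted p = 0.48) and was called higher without 8 h replicates 1 and 4 (0.70, adjusted p = 0.018). *PIF5*, a growth-promoting bHLH factor, had 74.1, 19.2, 27.3 and 79.8 CPM at 8 h, against 192, 210, 214 and 251 CPM at 3 h (log2 change -2.10 ± 0.44 SE, edgeR adjusted p = 0.012). *PIF4* had 82.0, 27.2, 31.4 and 94.5 CPM at 8 h, against 130, 141, 156 and 214 CPM at 3 h (log2 change -1.44 ± 0.41 SE, edgeR adjusted p = 0.045), and without 3 h replicate 4 its change of -1.25 was not called (adjusted p = 0.080). Both were split at 8 h by library pair without reaching the 3 h range. *PIF7* averaged 14.0 ± 0.799 CPM at 8 h and 39.0 ± 8.69 CPM at 3 h, and *HFR1*, which restrains the PIFs, averaged 2.42 ± 0.653 CPM at 8 h and 8.53 ± 2.11 CPM at 3 h (SD, n = 4 each). *ATHB2* was called lower too (-0.86).

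Of 19 auxin response genes, edgeR called 6 lower and none higher (median -0.95), against 6.91% lower of all genes. It called 9 lower without 8 h replicates 1 and 4, and 4 lower without 8 h replicates 2 and 3. DESeq2 called 12, all lower. Auxin level was not measured. *IAA1*, an auxin-induced repressor, had 6.94, 3.47, 5.20 and 6.29 CPM at 8 h, against 12, 12.9, 11.9 and 22.9 CPM at 3 h (log2 change -1.44 ± 0.29 SE, edgeR adjusted p = 0.010). *SAUR15*, *SAUR20* and *SAUR23*, small auxin-induced growth genes, were called lower at log2 fold changes of -2.34, -1.86 and -2.07. In all 3 the highest library was 3 h replicate 4 (7.01, 12.5 and 9.89 CPM), and without it the values were -1.76, -1.28 and -1.26, still called. The values were -2.19, -1.64 and -2.04 without 8 h replicates 1 and 4, and none of the 3 was called (adjusted p of 0.051, 0.092 and 0.12, edgeR). They were -2.52, -2.13 and -2.12 without 8 h replicates 2 and 3, and only *SAUR15* was called (adjusted p of 0.041, 0.062 and 0.11, edgeR). *IAA14* and *IAA17* were called lower by smaller amounts (-1.22 and -0.88). *YUC8*, an auxin biosynthesis enzyme, was at 0.634 to 1.81 CPM at 8 h and 3.27 to 8.59 CPM at 3 h, and *PIN4*, an auxin exporter, at 76.1 to 93.5 CPM at 8 h and 101 to 109 CPM at 3 h, both called lower (-1.93 and -0.32). *YUC8* was not called without 8 h replicates 1 and 4 (-1.59, adjusted p = 0.062, edgeR), and *PIN4* was not called without 3 h replicate 4 (-0.31, adjusted p = 0.057) or 8 h replicates 2 and 3 (-0.26, adjusted p = 0.12).

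Of 13 PIP aquaporins, water channels of the plasma membrane, 5 were called lower and none higher by edgeR (median -0.53), against 6.91% lower of all genes. DESeq2 called 6, all lower. *PIP2;1* had 410, 451, 511 and 385 CPM at 8 h, against 973, 1191, 1230 and 1388 CPM at 3 h (log2 change -1.44 ± 0.14 SE, edgeR adjusted p = 4.8e-04). *PIP1;1* had 161, 108, 128 and 136 CPM at 8 h, against 294, 382, 362 and 456 CPM at 3 h (log2 change -1.48 ± 0.17 SE, edgeR adjusted p = 0.0011). Neither overlapped. *PIP1;2*, *PIP2;3* and *PIP1;5* were called lower as well (-0.82, -1.11 and -0.75), the last not without 8 h replicates 2 and 3 (-0.60, adjusted p = 0.098, edgeR). Across the 3 WT groups *PIP2;1* averaged 1760 CPM in uninduced WT, 1196 CPM at 3 h and 439 CPM at 8 h. The 12 expansin A genes tested, which loosen cell walls, had a median of 0.22, with 9 positive values of which none was called by edgeR or DESeq2. Of these edgeR called 3 higher without 8 h replicates 1 and 4 (list median 0.49), *EXPA5*, *EXPA6* and *EXPA10*, and 0 higher without 8 h replicates 2 and 3 (list median -0.19). *EXPA8* and *EXPA1* were called lower in all 3 cases: *EXPA8* averaged 22.3 ± 5.50 CPM at 8 h and 81.8 ± 14.6 CPM at 3 h, and *EXPA1* averaged 87.3 ± 29.6 CPM at 8 h and 169 ± 20.7 CPM at 3 h (SD, n = 4 each). The root endodermis markers given above were lower at 8 h too, and their part in these results was not tested.

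Of 14 abscisic acid response genes, 6 were called lower and 1 higher (median -0.75), against 6.91% lower and 9.06% higher of all genes. The counts were 4 lower and 1 higher without 8 h replicates 1 and 4, and 4 lower and 3 higher without 8 h replicates 2 and 3. *ABI5*, a bZIP factor of seed germination, was the gene that rose, at 2.26 to 2.83 CPM at 8 h and 0.536 to 0.919 CPM at 3 h. *HB12* had 2.5, 4.22, 4.96 and 2.31 CPM at 8 h, against 10.5, 15.5, 16.1 and 8.14 CPM at 3 h, and *ABF3*, a bZIP activator of drought genes, averaged 36.2 ± 14.5 CPM at 8 h and 88.8 ± 14.0 CPM at 3 h (SD, n = 4 each). *RAB18* and *P5CS1* were called lower with overlap, 3 h replicate 4 (18 and 108 CPM) lying within the 8 h range of each (7.23 to 20.8 and 67.9 to 119 CPM). Their changes of -1.70 and -1.21 were -1.28 and -1.01 without 8 h replicates 2 and 3, and not called (adjusted p of 0.10 and 0.086, edgeR). Of 10 cold response genes 1 was called higher and 1 lower, near the shares of all genes (9.06% and 6.91%). *COR15B*, a chloroplast protein of freezing tolerance, had 62.2, 52.5, 85.9 and 55.4 CPM at 8 h, against 5.75, 12.7, 3.83 and 11.6 CPM at 3 h (log2 change 2.92 ± 0.37 SE, edgeR adjusted p = 0.0014). *KIN1* averaged 3.49 ± 1.45 CPM at 8 h and 30.0 ± 16.3 CPM at 3 h (SD, n = 4 each) and was called lower.

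Among the 9 type-A cytokinin response regulators tested *ARR15* was called higher and *ARR9* lower, against 9.06% higher and 6.91% lower of all genes. *ARR15* changed by 1.16 (edgeR adjusted p = 0.045), and was not called without 3 h replicate 4 (1.2, adjusted p = 0.058) or without 8 h replicates 1 and 4 (1.39, adjusted p = 0.063) or 2 and 3 (0.86, adjusted p = 0.20). *ARR9* averaged 15.5 ± 2.21 CPM at 8 h and 41.2 ± 4.16 CPM at 3 h (SD, n = 4 each) (log2 change -1.41 ± 0.12 SE, edgeR adjusted p = 2.5e-04). Of 16 gibberellin genes 2 were called higher, the receptor *GID1A* (0.65) and the DELLA repressor *RGL1* (0.52), and 1 lower, the biosynthetic *GA20OX1* (-2.07). These counts were near the shares of all genes. *RGL1* was not called without 8 h replicates 2 and 3 (0.29, adjusted p = 0.22, edgeR), and *GA20OX1* was not without 8 h replicates 1 and 4 (-1.66, adjusted p = 0.11). The ethylene signaling gene *EBF2* was called lower (-0.58), though not without 8 h replicates 1 and 4 (-0.61, adjusted p = 0.071) or 2 and 3 (-0.60, adjusted p = 0.053). None of 9 brassinosteroid genes was called by edgeR (4 at an unadjusted p under 0.05, 3 called by DESeq2). Among metal genes *CSD1*, *CSD2* and their chaperone *CCS*, which use copper against superoxide, were called higher (0.77, 0.84 and 0.51), while *FSD1*, the iron counterpart, was at 386 to 824 CPM at 8 h and 1017 to 1233 CPM at 3 h and was called lower (-0.89, adjusted p = 0.025, edgeR). *CSD2* and *CCS* had values of 0.49 and 0.35 without 8 h replicates 2 and 3 and were not called (adjusted p of 0.14 and 0.21, edgeR).

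Most ribosome biogenesis genes rose, by modest amounts. All 10 had positive values (0.31 to 0.85) and 7 were called higher, with a median of 0.68 (5 without 8 h replicates 1 and 4). *NOP56*, of the snoRNA particles that modify ribosomal RNA, had 204, 201, 171 and 201 CPM at 8 h, against 127, 120, 107 and 125 CPM at 3 h (log2 change 0.70 ± 0.11 SE, edgeR adjusted p = 0.0033). The groups were apart in all libraries, and within each time replicate 3 was the lowest. *FIB2*, a fibrillarin, averaged 109 ± 17.8 CPM at 8 h and 62.0 ± 9.29 CPM at 3 h, *PRH75*, a nucleolar RNA helicase, averaged 214 ± 40.0 CPM and 129 ± 19.8 CPM, and AT1G52930, a Brix-domain protein, averaged 47.1 ± 5.62 CPM and 26.2 ± 2.69 CPM (SD, n = 4 each). *NUC1*, nucleolin, was at 460 to 645 CPM at 8 h and 310 to 420 CPM at 3 h and was called (0.69). *PRH75* and *NUC1* had values of 0.46 and 0.48 without 8 h replicates 1 and 4 that were not called (adjusted p of 0.087 and 0.073, edgeR). The *NOP56* promoter (chr1:20986953-20987092, minus strand) is shown as an example that holds both motifs, not as typical of the list. The site II sequence TGGGCC (and its reverse complement GGCCCA) and the telo-box AAACCCTA are in capitals.
NOP56: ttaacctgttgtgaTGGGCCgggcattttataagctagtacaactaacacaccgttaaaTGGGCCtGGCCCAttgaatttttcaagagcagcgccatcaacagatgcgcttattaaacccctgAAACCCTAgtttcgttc

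Site II was found in 24.2% of the promoters of genes called higher, in 12.5% of those called lower and in 17.3% of all, and the telo-box in 7.55%, 2.05% and 4.27%. The heat shock element GAANNTTC was found in 11.3%, 8.5% and 11.1%, and the phosphate starvation element P1BS, GNATATNC, in 5.20%, 6.74% and 6.51%. Among genes called higher by at least 2-fold, site II was found in 17.2% and the telo-box in 6.88%. Of the 10 ribosome biogenesis genes, site II was found in the promoters of 5, the telo-box in 2 and the heat shock element in 4.

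Part of the genes of DNA replication also rose. Of 14 S-phase and D3 cyclin genes, 8 were called higher and none lower by edgeR (median 0.58; DESeq2 called 10, all higher), among them *MCM2*, *MCM3*, *MCM5*, *MCM6* and *MCM7*, subunits of the replicative helicase, at 0.57 to 0.69. *MCM6* had 21.5, 23.5, 22.2 and 23.3 CPM at 8 h, against 16.8, 15.0, 12.6 and 11.6 CPM at 3 h (log2 change 0.69 ± 0.13 SE, edgeR adjusted p = 0.0069). *TSO2*, a ribonucleotide reductase subunit, had 74.3, 176, 113 and 85.4 CPM at 8 h, against 62.1, 53.2, 50.4 and 45.7 CPM at 3 h (log2 change 1.09 ± 0.25 SE, edgeR adjusted p = 0.019). *PCNA1*, the sliding clamp, averaged 25.9 ± 4.31 CPM at 8 h and 15.1 ± 2.97 CPM at 3 h (SD, n = 4 each). The *CYCD3* genes, which drive the cambium into the cell cycle, were not called (-0.05, -0.30 and 0.15). Of these *CYCD3;2* was called lower without 8 h replicates 2 and 3 (-0.69, adjusted p = 0.03, edgeR). Without 8 h replicates 2 and 3, 4 of the 14 were called higher and 1 lower, and *MCM2*, *MCM3*, *MCM5* and *PCNA1* had values of 0.49, 0.45, 0.52 and 0.61 that were not called (adjusted p of 0.095, 0.086, 0.073 and 0.051, edgeR). *MCM5* was not called without 8 h replicates 1 and 4 either (0.60, adjusted p = 0.051). None of 17 mitotic genes was called by edgeR with all libraries, although all 17 then had small positive values (0.10 to 0.36). Of these genes 1 had an unadjusted p under 0.05 and DESeq2 called 0. The positive values depended on the 8 h pair kept. Without 8 h replicates 1 and 4 the list median was 0.40 and edgeR called 2 higher. Without 8 h replicates 2 and 3 the list median was -0.01 and edgeR called 0.

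No gene of the cambium signaling lists was called between the times. The receptor PXY, activated by the peptide TDIF (encoded by *CLE41* and *CLE44*), and the ER family receptors act in the vascular cambium, the stem cell layer that makes wood. Of 8 receptor and peptide genes tested (of 9, *PXL1* being too low), none was called by edgeR (1 at an unadjusted p under 0.05, 1 called by DESeq2), and the median log2 fold change was -0.08. *PXY* had 45.6, 40.7, 44.1 and 46.8 CPM at 8 h, against 48.8, 39.1, 45.0 and 27.2 CPM at 3 h, where replicate 4 alone was low (log2 change 0.15 ± 0.16 SE, edgeR adjusted p = 0.59; 0.01 without 3 h replicate 4). *ER* had 72.7, 95.7, 93.5 and 87.9 CPM at 8 h, against 104, 80.6, 102 and 95 CPM at 3 h (log2 change -0.12 ± 0.12 SE, edgeR adjusted p = 0.55). The groups of both genes overlapped.

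*ERL1* was at 3.98 to 5.84 CPM at 8 h and 4.35 to 6.89 CPM at 3 h, and *PXL2* at 1.27 to 1.4 CPM at 8 h and 0.914 to 1.81 CPM at 3 h. *ERL2* had the largest difference of the list and averaged 16.3 ± 3.34 CPM at 8 h and 24.6 ± 5.12 CPM at 3 h (SD, n = 4 each) (log2 change -0.59 ± 0.19 SE, edgeR adjusted p = 0.068). Without 3 h replicate 4, the 3 h library within the 8 h range, it was called lower (-0.71, adjusted p = 0.021). *CLE41* was at 16.3 to 28.9 CPM at 8 h and 9.94 to 21.6 CPM at 3 h, *CLE44* at 2.58 to 4.14 CPM at 8 h and 2.82 to 4.95 CPM at 3 h, and *CLE42* at 0.509 to 1.3 CPM at 8 h and 0.734 to 1.34 CPM at 3 h.

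None of the 8 TDIF-PXY target genes was called by edgeR (median -0.06), 3 had an unadjusted p under 0.05 and DESeq2 called 1. *WOX4*, the homeobox regulator of cambium division, had 4.3, 4.86, 4.77 and 5.61 CPM at 8 h, against 6.83, 5.74, 5.46 and 2.54 CPM at 3 h (log2 change -0.07 ± 0.27 SE, edgeR adjusted p = 0.90). Replicate 4 at 3 h was below every 8 h library, 3 h replicates 1 and 2 were above every 8 h library, and the value without replicate 4 was -0.29 (edgeR adjusted p = 0.24). *LBD4*, a regulator at the phloem side of the cambium, had 7.54, 8.43, 9.44 and 8.47 CPM at 8 h, against 7.42, 6.81, 7.25 and 5.20 CPM at 3 h. Its groups did not overlap, and it was not called (log2 change 0.35 ± 0.14 SE, edgeR adjusted p = 0.14). *TMO6* was at 11.5 to 15.8 CPM at 8 h and 15.6 to 20.2 CPM at 3 h (log2 change -0.40, edgeR adjusted p = 0.098) and was called lower without 8 h replicates 1 and 4 (-0.62, adjusted p = 0.032). *WOX14*, *ANT*, *AIL5*, *AIL6* and *AIL7* overlapped, with log2 fold changes of -0.06, 0.27, -0.20, -0.42 and 0.28. Of 21 xylem and secondary wall genes none was called by edgeR (median -0.04), 1 had an unadjusted p under 0.05 and DESeq2 called 1. *CORD1* was called lower without 3 h replicate 4 (-1.28, adjusted p = 0.021, edgeR). Without 8 h replicates 1 and 4, *CORD1* and *FRA8* were called lower (-1.62 and -1.49, adjusted p of 0.047 and 0.039). A missed threshold does not show that the genes of these lists were equal at both times. In the stomatal lineage, where ER family receptors also act, 2 of 14 genes were called lower, against 6.91% of all genes. These were the bHLH partners *SCRM* and *SCRM2*, with small changes (-0.37 and -0.28). Without 8 h replicates 1 and 4 neither was called (-0.25 and -0.29, adjusted p of 0.20 and 0.10, edgeR), nor was *SCRM2* without 8 h replicates 2 and 3 (-0.30, adjusted p = 0.073). *TMM* was not called with all libraries (-0.31) and was called lower without 8 h replicates 2 and 3 (-1.20, adjusted p = 0.003, edgeR). The median of the stomatal list was 0.07 without 8 h replicates 1 and 4 and -0.54 without 8 h replicates 2 and 3.

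For several lists the calls depended on which libraries were kept. Of 16 touch and early stress genes none was called by edgeR or DESeq2 or reached an unadjusted p under 0.05 with all libraries, 3 were called lower without 8 h replicates 1 and 4, and 7 were called higher without 8 h replicates 2 and 3. Of 22 jasmonate genes tested none was called by edgeR or DESeq2 with all libraries (3 at an unadjusted p under 0.05), 13 were called lower without 8 h replicates 1 and 4, and 4 were called higher without 8 h replicates 2 and 3. *TCH4*, a touch-induced wall enzyme chosen after its values were seen, had 453, 4.22, 16.9 and 375 CPM at 8 h, against 147, 79.6, 77.6 and 246 CPM at 3 h. The 8 h libraries lay on both sides of the 3 h range, and edgeR called the gene lower without 8 h replicates 1 and 4 (-3.72, adjusted p = 0.017) and higher without 8 h replicates 2 and 3 (1.58, adjusted p = 0.049). *VSP2*, a jasmonate-induced storage protein chosen in the same way, had 151, 14.2, 37.2 and 239 CPM at 8 h, against 598, 940, 784 and 95.7 CPM at 3 h. All 8 h libraries and 3 h replicate 4 were below 3 h replicates 1, 2 and 3. Its change of -2.43 was not called (edgeR adjusted p = 0.10), and was called without 3 h replicate 4 (-2.78, adjusted p = 0.048) and without 8 h replicates 1 and 4 (-4.57, adjusted p = 0.020).

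Of 15 sugar and energy status genes, *SWEET12*, a sucrose exporter of the phloem, was the 1 gene called by edgeR, at 59.4 to 92.1 CPM at 8 h and 19.3 to 31.6 CPM at 3 h (log2 change 1.67 ± 0.20 SE, edgeR adjusted p = 0.0011). DESeq2 called *SWEET12* and *BZIP11*, a sucrose-controlled bZIP factor, both higher (*BZIP11* 0.90 in edgeR, adjusted p = 0.085, and 0.88 in DESeq2, adjusted p = 0.033). In edgeR *BZIP11* was called higher without 8 h replicates 1 and 4 (1.37, adjusted p = 0.0036). Genes repressed by sugar, chosen after their values were seen, parted the libraries instead. *ASN1*, asparagine synthetase, had 110, 1.95, 1.69 and 181 CPM at 8 h, against 38.3, 65.8, 82.1 and 415 CPM at 3 h. *DIN10* had 1729, 129, 218 and 1835 CPM at 8 h, against 164, 179, 242 and 1333 CPM at 3 h. In both genes replicates 1 and 4 at 8 h and replicate 4 at 3 h were high. *BT2* had 1126, 132, 372 and 1131 CPM at 8 h, against 56.0, 61.7, 56.2 and 528 CPM at 3 h, with the same 3 libraries high. None of the 3 was called by edgeR (adjusted p of 0.67, 0.54 and 0.20). *BT2* was called higher without 3 h replicate 4 (3.59 against 1.97 with all libraries, adjusted p = 0.012), and *ASN1* was called lower without 8 h replicates 1 and 4 (-6.38 against -1.02, adjusted p = 0.017). Without 8 h replicates 1 and 4 the list gave 3 called higher and 6 lower. Whether the split between libraries has a technical or other source was not tested. With either 8 h pair left out 16 antenna genes and 10 or 11 morning clock genes were called lower and 4 or 5 evening clock genes higher.

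The same interval was measured in the other lines, without a shared library. In XVE:EPFL4 5395 of 20146 genes (26.8%) were called, 2820 (14.0%) higher and 2575 (12.8%) lower, and in *er* XVE:ER 3085 of 20051 (15.4%), 1660 (8.28%) higher and 1425 (7.11%) lower. Of the 115 named genes called in WT, 112 had the same sign in XVE:EPFL4 and 115 in *er* XVE:ER, which is a description of genes chosen for their WT change. The test of the difference between the WT change and that of another line called 0 of 20351 genes for XVE:EPFL4 and 0 of 20446 for *er* XVE:ER (edgeR, Benjamini-Hochberg). At an unadjusted p under 0.05 there were 1862 (9.15%) and 1362 (6.66%) genes, and DESeq2 called 60 and 9.

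Clock genes moved in each line. *CCA1* changed by -6.78 in WT, -5.51 in XVE:EPFL4 and -5.78 in *er* XVE:ER, *TOC1* by 2.66, 2.63 and 2.73, *ELF4* by 3.81, 4.05 and 4.11, and *GRP7* by 2.93, 3.31 and 3.48, all called. Less alike were *FKF1* (4.34, 5.96 and 5.28) and *PRR9* (-7.30, -4.23 and -5.63), also called in each line. Their differences between WT and XVE:EPFL4 did not pass the threshold (unadjusted p of 0.0016 and 0.0035, adjusted p of 0.37 and 0.4, edgeR). The antenna list gave 16 genes called lower in WT, 10 in XVE:EPFL4 and 5 in *er* XVE:ER, with medians of -1.98, -1.24 and -0.75. For *LHCB1.3* the change was -1.11 in WT and -0.09 in *er* XVE:ER, and the difference of -1.02 (SE 0.37) did not pass the threshold (unadjusted p = 0.016, adjusted p = 0.71, edgeR). In *er* XVE:ER it had 7412, 14003, 12316 and 19505 CPM at 8 h, against 13285, 14599 and 14864 CPM at 3 h, so that its 8 h libraries spread over the whole 3 h range.

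The 3 genes whose sign was opposite in XVE:EPFL4 were *NATA1*, *EXPA1* and *SCRM2*. *NATA1* changed by -4.78 in WT and 0.71 in XVE:EPFL4, where it had 0.764, 9.73, 0.183 and 2.36 CPM at 8 h, against 1.76, 0.710, 3.93 and 1.42 CPM at 3 h. The difference of -5.52 (SE 1.38) did not pass the threshold (unadjusted p = 0.0010, adjusted p = 0.35, edgeR). *EXPA8* changed by -1.87 in WT, -0.10 in XVE:EPFL4 and -0.53 in *er* XVE:ER, and *MCM6* by 0.69, 0.09 and 0.19, again without a difference that passed (adjusted p of 0.35 and 0.71 for *EXPA8*, 0.42 and 0.71 for *MCM6*, edgeR). *ER* itself, the transgene of one line, changed by -0.12 in WT and 1.59 in *er* XVE:ER, where it had 1542, 922, 1120 and 724 CPM at 8 h, against 357, 267 and 457 CPM at 3 h. The difference of -1.71 (SE 0.31) had an unadjusted p of 6.8e-05 and an adjusted p of 0.63 (edgeR). Even the change of this inducible transgene did not pass, so the lack of calls does not show that the lines changed alike.

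**Figure D5:**
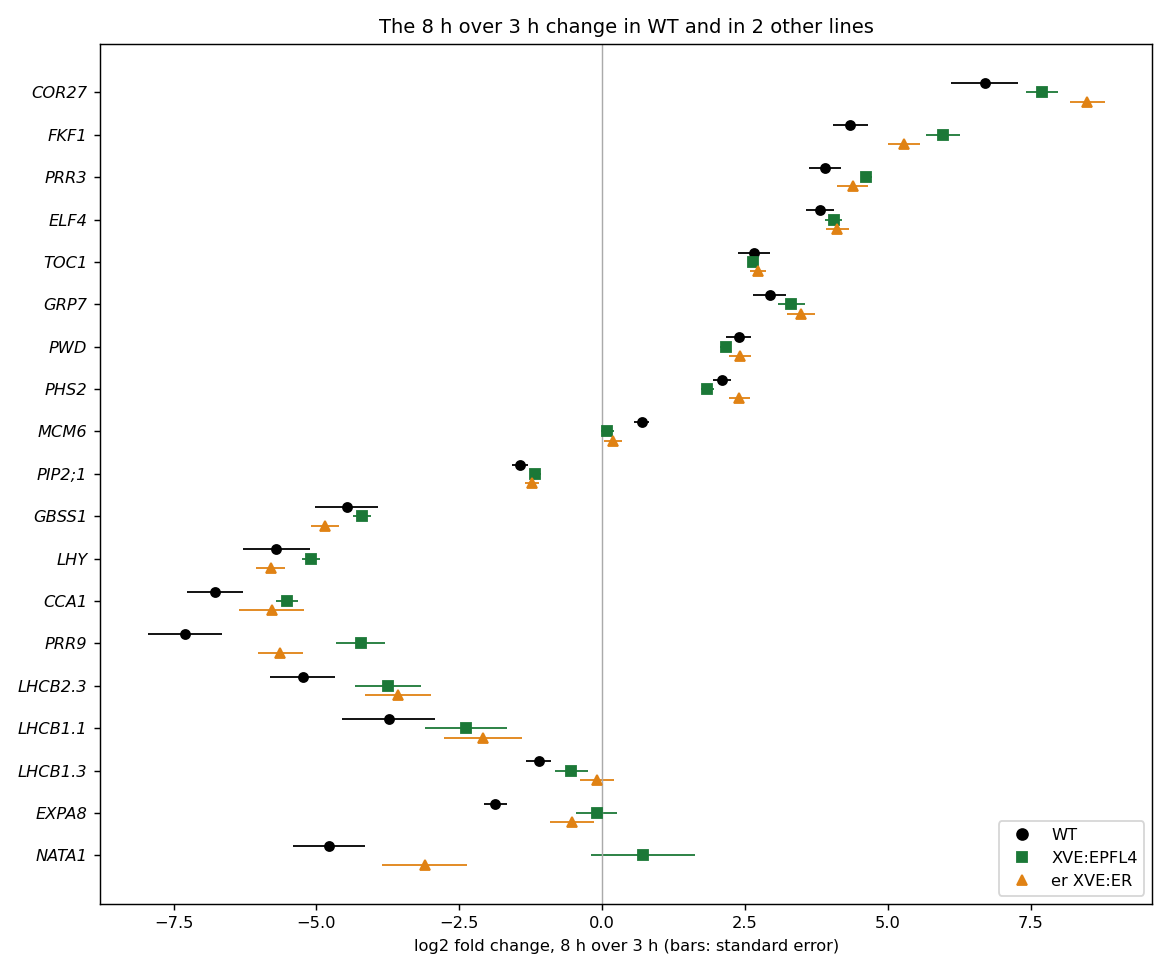
Log2 fold change, 8 h over 3 h, with standard error, of 19 named genes in WT (black circles), XVE:EPFL4 (green squares) and *er* XVE:ER (orange triangles). *TOC1*, *ELF4* and *GRP7* lie close together in the 3 lines (*TOC1* 2.66, 2.63 and 2.73), *PRR9*, *LHCB2.3*, *EXPA8* and *NATA1* spread more (*NATA1* -4.78, 0.71 and -3.11), and for no gene plotted did the difference between WT and another line pass the threshold.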

How the data were processed

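RNA was sequenced from 35 libraries of whole seedlings, 8 of which form the comparison. The deposited files hold a whole-number read count per gene and library, not normalized, for 32833 genes, and the submitters' processing notes name STAR 2.7.11a and TAIR10. The strand setting of the counting step is not given in the sources used here, and the reads were not reprocessed. Gene names and promoters came from the RefSeq annotation of TAIR10.1, which matched 32548 of the genes.

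Counts were analyzed in edgeR 4.0.16 (R 4.3.3) with TMM scaling, a filter on low counts (filterByExpr, minimum count 10, minimum total 15), the quasi-likelihood test on the 4 and 4 libraries and Benjamini-Hochberg adjustment at 0.05. CPM used the TMM factors. The smallest p an exact two-sided permutation test of 4 against 4 can give is 0.0286, and 109 of the named genes reached it. Groups that do not overlap give this value by construction. Many genes were named for a call or for a lack of overlap, so the count is not a separate check. Differences between lines were tested as interaction contrasts. The code was tested on simulated data with 200 changed genes among 19628. There edgeR recovered 67% of the 2-fold and 93% of the 4-fold changes with 12 false calls, and DESeq2 recovered 85% and 97% with 49 false calls. The calls of DESeq2 given above are therefore the less strict of the 2 tools. Changed genes were drawn only among those of higher count. The simulated libraries did not hold the split between library pairs, so false calls due to it were not measured.

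Named genes were the 10 largest called changes whose libraries did not overlap, with a mean of at least 1 CPM, and the 5 most abundant called genes in each direction, up to 4 called members per direction of each list, and the clock and cambium genes. The lists and the genes shown were chosen with earlier results of these data known. ASN1, DIN10, TCH4, SEN1, BT2 and VSP2 were added after their values were seen, as were further list members given by value. Some genes that met the rule are not reported here. Of the 136 named by rule, 40 overlap another annotated gene, 35 of them on the opposite strand, and values of such genes and of near-identical *LHCB* and *SAUR* copies are uncertain. Alternatives were DESeq2 1.42.0, its size factors, a replicate block, no filter, wider fits and leaving out each library. Tables and figures used Python 3.11.15, pandas 2.3.3 and numpy 2.4.6.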

Additional observations from a re-analysis of the deposited data

Results flagged for a closer look

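The genes named by rule were 136, of which 135 were tested, each with a group at 8 h and a group at 3 h. Among them, single libraries lay far from the other libraries of their time in 20 cases by Dixon's ratio of gap to range, at its 95% critical value for 4 samples. Chance gives about 1 in 20 groups. Over all genes tested the share was 4.82% at 8 h and 10.4% at 3 h, and 3 h replicate 4 was the far library for 8.43%. Whether such cases were more frequent among the named genes than among all genes was not tested. In 15 of the 20 cases the far library was 3 h replicate 4. Another 4 cases, all 3 h replicate 4, were genes chosen because the libraries differed in them, so they are given as values and not counted.

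At 8 h replicate 3 was the far library for 5 genes. AT1G07050 stood at 77.3 CPM there (others 61.6 to 64.1), the transketolase AT3G60750 at 3451 CPM (others 2609 to 2638), *PHS2* at 1008 CPM (others 698 to 734), *SS2* at 42.1 CPM (others 33.4 to 34.0) and *NOP56* at 171 CPM (others 201 to 204).

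At 3 h replicate 4 stood on the 8 h side of its group for most clock genes. It was above the others for *JMJD5* (6.16 CPM, others 2.09 to 2.45), *COL9* (7.01 CPM, others 3.27 to 3.71), *GRP7* (678 CPM, others 297 to 332), *GRP8* (400 CPM, others 276 to 280), *PRR5* (22.4 CPM, others 12.9 to 14.3), *TOC1* (51.2 CPM, others 26.2 to 28.1), *ELF3* (43.6 CPM, others 22.3 to 23.7) and *SBE2.1* (121 CPM, others 67.8 to 76.6). It was below the others for *CDF3* (28.5 CPM, others 95.4 to 102) and *RCA* (7318 CPM, others 11093 to 11695). *PRR7* (282 CPM, others 167 to 186), *IAA1* (22.9 CPM, others 11.9 to 12.9), *YUC8* (8.59 CPM, others 3.27 to 4.02), AT3G60750 (1512 CPM, others 2110 to 2136) and *CLE41* (9.94 CPM, others 20.2 to 21.6) lay on the side away from 8 h. Of the genes chosen after their values were seen, the sugar-repressed *ASN1* (415 CPM, others 38.3 to 82.1), *DIN10* (1333 CPM, others 164 to 242) and *SEN1* (255 CPM, others 23.2 to 54.6) and the nitrate-responsive *BT2* (528 CPM, others 56.0 to 61.7) were also high in that library. *SEN1* was not called with all libraries (-0.64, adjusted p = 0.77, edgeR) and was called lower without 8 h replicates 1 and 4 (-4.73, adjusted p = 0.035). No source of these differences was tested.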

How the results depend on the processing

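The number of genes called between WT 8 h and WT 3 h was 3154. DESeq2 called 4062, its size factors in edgeR gave 3145, no filter gave 2904 and the 12 WT libraries in 1 fit gave 4366, while all 35 libraries in 1 fit gave 4924. Leaving out 1 library gave 1711 to 4077 (XVE:EPFL4 3297 to 6233, main 5395; *er* XVE:ER 1190 to 3661, main 3085). For the difference between lines all 35 libraries gave 6 calls (XVE:EPFL4) and 3 (*er* XVE:ER), DESeq2 60 and 9, and leaving out 1 library 0 to 3 and 0 to 1. With a replicate block 2817 genes were called. Samples of equal number did not deviate together in all 4 pairs (correlations -0.00712, 0.0803, 0.194 and 0.180), nor did every sample correlate best with its own number, so the numbers were not taken as a pairing. Of the 115 named calls, 13 were lost under the block, 9 without a filter, 2 with the size factors, 2 with all 35 libraries, none with DESeq2 or the 12 WT libraries, 4 to 29 without 1 library, and 18 and 21 without 8 h replicates 1 and 4 or 2 and 3. No call changed sign in these settings. The causes were not tested. The median change of all genes moved to at most 0.03 under any single change of setting. With 4 libraries a group, changes under 2-fold and genes of a few CPM are the least certain.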

Other observations

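With all libraries kept, nutrient and defense lists gave few calls between WT 8 h and WT 3 h, where 9.06% of all genes were called higher and 6.91% lower. Of 20 nitrate transport and assimilation genes 1 was called higher (*UPM1*, 0.52), of 18 iron uptake genes 1 was called higher (*BGLU42*, 0.78) and 1 lower (*F6H1*, -1.05), and of 4 ferritin genes *FER3*, an iron store of the chloroplast, was called higher (1.04). *UPM1* and *F6H1* were not called without 8 h replicates 1 and 4 (0.57 and -1.10, adjusted p of 0.054 and 0.069, edgeR) or 2 and 3 (0.44 and -1.04, adjusted p of 0.080 and 0.083), nor was *FER3* without 8 h replicates 2 and 3 (0.91, adjusted p = 0.088). The nitrate list gave 5 called higher and 2 lower without 8 h replicates 1 and 4. It gave 3 higher and 2 lower without 8 h replicates 2 and 3. *NRT1.1* and *RFNR2* were called higher in the first case (0.54 and 0.58) and lower in the second (-0.52 and -0.56). Of 14 phosphate starvation genes none was called by edgeR (4 at an unadjusted p under 0.05, 1 called by DESeq2). Of 16 heat shock genes the immunophilin *ROF2* was called lower (-1.65), and 7 were called lower and 1 higher without 8 h replicates 2 and 3, against 3 lower and none higher without 8 h replicates 1 and 4. Of 20 flavonoid and phenylpropanoid genes *PAL2* was called lower (-0.78) and the median was -0.08. The direction of the list turned with the 8 h pair kept, with 7 called higher and 1 lower without replicates 1 and 4 (median 0.45) and 0 higher and 5 lower without replicates 2 and 3 (median -0.69). *PAL2* was not called without replicates 1 and 4 (-0.57, adjusted p = 0.11, edgeR). Of 22 glucosinolate genes *MYB122* was called lower (-1.76), though not without 8 h replicates 2 and 3 (-1.40, adjusted p = 0.15, edgeR). The list gave 5 called lower without 3 h replicate 4 and 3 lower without 8 h replicates 1 and 4. Without 8 h replicates 2 and 3 it gave 1 higher and 2 lower. In *er* XVE:ER over the same interval, 13 glucosinolate genes were called lower and 1 higher, and whether the list differed between the lines was not tested.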
